A study of Mus musculus with 16 samples.

Results

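The miR-29 family was measured in the lateral ventricle (LV) wall of the mouse brain, the tissue that lines the ventricle and carries the ciliated ependymal cells. Members were taken by name from the array's own annotation, and 5 of the 1881 mature mouse miRNAs on the array were members, namely mmu-miR-29a-3p, mmu-miR-29a-5p, mmu-miR-29b-3p, mmu-miR-29c-3p and mmu-miR-29c-5p, where mmu stands for mouse and is left out from here on. Tissue came from 8 WT littermates and 8 Dgcr8+/- mice, which carry a deletion of 1 allele of Dgcr8 in every cell. All were males 8 months of age on a C57BL/6J background, with 1 mouse on each 1-colour array. The arrays read miRNAs only, so the Dgcr8 transcript could not be used here to check the genotype labels. The question was whether the members and the arms of their hairpins differed between the genotypes.

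Dgcr8 is the RNA-binding partner of Drosha in the Microprocessor, the nuclear complex that cuts primary transcripts into hairpins, and Dicer then cuts each hairpin into a 5p arm and a 3p arm. The 3p arms of the miR-29 family are the guide strands that are usually loaded into the silencing complex, and the 5p arms are usually the less abundant passenger strands. In the brain the family accumulates as neurons mature and is abundant in neurons and astrocytes, and its best known targets are the transcripts of collagens and other matrix proteins, of DNA methyltransferases and of pro-apoptotic BH3-only proteins.

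The sequences are shown because the seed defines the family and because the 3p arms are so alike that the identity of each signal depends on a few bases. RefSeq sequences were found for all 5 members and for the 2 remaining arms, and capitals mark the seed, which is bases 2 to 8 counted from the 5′ end.
mmu-miR-29a-3p: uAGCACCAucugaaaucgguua
mmu-miR-29b-3p: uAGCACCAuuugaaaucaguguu
mmu-miR-29c-3p: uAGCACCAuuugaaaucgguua
mmu-miR-29a-5p: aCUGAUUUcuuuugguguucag
mmu-miR-29c-5p: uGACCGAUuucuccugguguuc
mmu-miR-29b-1-5p: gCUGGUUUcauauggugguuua
mmu-miR-29b-2-5p: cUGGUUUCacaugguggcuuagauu

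The 3p arms shared the seed AGCACCA, and among 1679 mature mouse miRNAs in the RefSeq table no other miRNA had it. MiR-29c-3p differed from miR-29a-3p by the substitution C10U alone. MiR-29b-3p differed from miR-29a-3p by C10U, G18A, U21G and A22U and was 1 base longer, with positions counted from the 5′ end. How far a probe of miR-29a-3p also reads miR-29c-3p was not tested. The seeds of the 5p arms of miR-29a and miR-29c differed from that of the 3p arms and from each other, and no other mature miRNA in the table had either of them.

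The family comes from 4 hairpins in a pair of clusters. In GRCm38.p6, Mir29b-2 lies at chr1:195037040-195037120 and Mir29c at chr1:195037547-195037634, both on the plus strand and 426 bases apart. Mir29a lies at chr6:31062660-31062747 and Mir29b-1 at chr6:31063023-31063093, both on the minus strand and 275 bases apart. The 3p arms of Mir29b-1 and Mir29b-2 have the same sequence, so the signal of miR-29b-3p is the sum of both loci. The hairpins whose arms were both members are printed with the 5p and then the 3p arm in capitals.
Mir29a: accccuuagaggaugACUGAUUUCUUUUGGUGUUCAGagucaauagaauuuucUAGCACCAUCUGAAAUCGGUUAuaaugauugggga
Mir29c: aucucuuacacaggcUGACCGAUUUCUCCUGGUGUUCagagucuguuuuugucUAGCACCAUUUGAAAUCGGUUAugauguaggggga

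Before normalization, the arrays differed in brightness. The software detected 495 to 540 miRNAs on the WT arrays and 467 to 492 on the Dgcr8+/- arrays, and 495 miRNAs that were detected on at least 8 of the 16 arrays were tested. The median log2 signal of these miRNAs was 0.33 lower in Dgcr8+/- mice (2-sided exact permutation test, p = 0.00171). Dgcr8+/- replicate 2 stood apart, with the lowest labelling and hybridisation spike-ins of all arrays. Slide 1 held 6 WT and 2 Dgcr8+/- arrays, and slide 2 held 2 WT and 6 Dgcr8+/- arrays. The Dgcr8+/- arrays of slide 1 were replicates 2 and 5, so each difference within slide 1 leans on replicate 2.

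No member of the miR-29 family was called as different between genotypes in the main fit. This fit followed quantile normalization, in which the spread of signals is made equal on all arrays. All 5 were detected on all 16 arrays, no spot was saturated, and each was read by 30 spots per array. Of the 5 members, 0 were past the threshold of an adjusted p below 0.05 from limma with Benjamini-Hochberg adjustment over the 495 tested miRNAs, whereas 56.2% of all tested miRNAs were past it, 27.9% lower and 28.3% higher in Dgcr8+/- mice. At an unadjusted p below 0.05, 0 of the 5 were called, beside 64.8% of all tested miRNAs, and the methods' t-test with adjustment called 0 of the 5, beside 55.8%. The groups overlapped for every member, whereas 17.2% of the tested miRNAs had all 8 Dgcr8+/- mice below all 8 WT mice and 7.07% had them all above. The lack of a call was not particular to the family. Similarly bright miRNAs were not called by limma either, such as let-7a-5p (adjusted p = 0.313), miR-124-3p (0.217), miR-125b-5p (0.329) and miR-26a-5p (0.407). MiR-128-3p, also bright, was called lower, at −0.11 (adjusted p = 0.0386 from limma).

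The guide strands were bright and close to equal in the genotypes after quantile normalization. For such bright probes that step itself sets the values closely, as described below. For miR-29a-3p, the log2 signal was lowest at 14.27, with a median of 14.34 and a highest value of 14.38 in WT mice, and 14.27, 14.34 and 14.38 in Dgcr8+/- mice. The groups covered the same range. The difference of the means, Dgcr8+/- minus WT, was −0.0051 (standard error 0.032, 95% interval −0.073 to 0.063, adjusted p = 0.906 from limma). In percent of the signal, this interval ran from −4.94% to 4.45%. By slide the difference was 0.011 on slide 1 and −0.031 on slide 2.

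For miR-29b-3p, the product of both clusters, the lowest, median and highest log2 signals were 14.17, 14.27 and 14.29 in WT mice and 14.15, 14.27 and 14.30 in Dgcr8+/- mice. Replicate 1 was the lowest mouse of each genotype. The difference was −0.011 (standard error 0.034, 95% interval −0.083 to 0.061, adjusted p = 0.808 from limma).

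For miR-29c-3p, which differs from miR-29a-3p by that 1 base, the lowest, median and highest log2 signals were 13.53, 13.53 and 13.56 in WT mice and 13.40, 13.51 and 13.60 in Dgcr8+/- mice. The WT mice lay inside the range of the Dgcr8+/- mice. The difference was −0.031 (standard error 0.034, 95% interval −0.104 to 0.041, adjusted p = 0.441 from limma). Of the 3p arms it had the lowest fitted difference, and its interval ran from −6.96% to 2.89%. By slide the difference was 0.023 on slide 1 and −0.053 on slide 2.

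The passenger strands varied more from mouse to mouse, in the Dgcr8+/- group in particular. For miR-29a-5p, the lowest, median and highest log2 signals were 4.84, 4.96 and 5.03 in WT mice and 4.70, 5.00 and 5.29 in Dgcr8+/- mice. Dgcr8+/- mice were at both ends of the range. The difference was 0.074 (standard error 0.069, 95% interval −0.071 to 0.22, adjusted p = 0.356 from limma). With arrays weighted by their fit it was 0.13 and past the threshold (adjusted p = 0.0301 from limma), under which 34.1% of the tested miRNAs were called higher. It was −0.11 within slide 1 and 0.19 within slide 2, and without Dgcr8+/- replicate 2 it was 0.12 (adjusted p = 0.0594 from limma).

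For miR-29c-5p, the lowest, median and highest log2 signals were 7.61, 7.65 and 7.76 in WT mice and 7.07, 7.71 and 7.80 in Dgcr8+/- mice. A lone Dgcr8+/- mouse, replicate 2, was low, and the next lowest value of that group was 7.55. The difference was −0.054 (standard error 0.083, 95% interval −0.23 to 0.12, adjusted p = 0.596 from limma). Without replicate 2 it was 0.024. By slide it was −0.24 on slide 1, which held replicate 2, and 0.040 on slide 2.

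**Figure D1:**
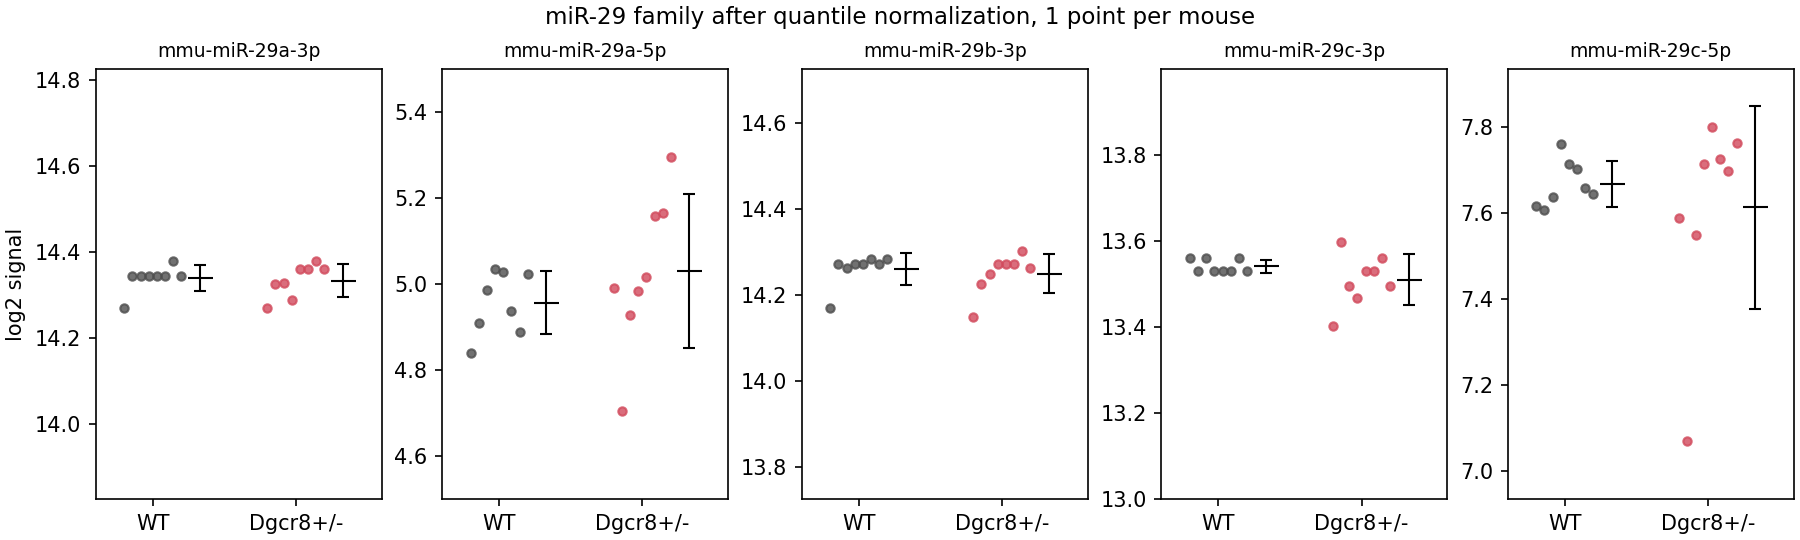
Log2 signal after quantile normalization (y axis, each panel spans 1 log2 unit) of the 5 members in WT and Dgcr8+/- mice, with 1 point per mouse in order of replicate number and the mean with its SD (n = 8) as a bar at the right of each group. The groups overlap in every panel, the points of the 3p arms line up at a few repeated values, and Dgcr8+/- replicate 2 is low for miR-29c-5p at 7.07.

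The exact permutation test over all 12870 groupings of 8 against 8 mice gave p values of 0.744 for miR-29a-3p, 0.591 for miR-29b-3p and 0.213 for miR-29c-3p. For the 5p arms it gave 0.304 for miR-29a-5p and 0.731 for miR-29c-5p. The smallest p this design allows is 0.000155, so a small p was attainable. This does not show how small a change 8 mice per group could detect, which was not tested.

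The other arms of the b hairpins were dim. MiR-29b-1-5p, the passenger strand of Mir29b-1, had a log2 signal of 3.95 ± 0.11 (SD, n = 8) in WT and 3.93 ± 0.30 (SD, n = 8) in Dgcr8+/- mice. Its difference was −0.027 (adjusted p = 0.853 from limma). Dgcr8+/- replicate 2 was again the lowest mouse, at 3.30. MiR-29b-2-5p, the passenger strand of Mir29b-2, was detected on 1 of the 8 WT arrays and on 0 of the 8 Dgcr8+/- arrays, was not tested and has no fold here.

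Among all tested miRNAs the members sat near the middle. Their median log2 fold change was −0.011, beside a median of 0.037 over the 495 tested miRNAs with quartiles of −0.27 and 0.27. In order from the lowest log2 fold change, miR-29c-5p ranked 191, miR-29c-3p 203, miR-29b-3p 214, miR-29a-3p 218 and miR-29a-5p 267 of 495. LV wall holds several cell types, and in bulk tissue a change in the number of cells of a type and a change in the miRNA content of each cell cannot be told apart.

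The precision of the 3p arms was partly set by the normalization itself. On each array, quantile normalization replaces a probe's signal with the mean signal of all arrays at its rank. The probes of the 3p arms ranked between 7 and 23 of 4415 on every array, where few ranks separate widely spaced signals. A probe of miR-29c-3p ranked 15 on all 8 WT arrays and so had an SD of 0 there. MiR-29a-3p took 7 different values on the 16 arrays, miR-29b-3p took 8 and miR-29c-3p took 6, whereas each of the 5p arms took 16. For the 3p arms, a change too small to alter the rank is therefore not visible in these values, and their narrow SDs are not a measure of the spread between mice alone.

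With no normalization between arrays, all 5 members were lower in Dgcr8+/- mice, as were most miRNAs. For miR-29a-3p, the lowest, median and highest log2 signals were 14.27, 14.41 and 14.88 in WT mice and 13.32, 14.20 and 14.45 in Dgcr8+/- mice. The difference was −0.43 (standard error 0.15, adjusted p = 0.0183 from limma), and miR-29b-3p had the same difference to 2 decimals (standard error 0.15, adjusted p = 0.0191 from limma). For miR-29c-3p, the values were 13.44, 13.68 and 14.09 in WT mice and 12.73, 13.29 and 13.56 in Dgcr8+/- mice. The difference was −0.53 (standard error 0.13, adjusted p = 0.00175 from limma), and 5 of the 8 Dgcr8+/- mice lay below every WT mouse.

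The 5p arms were lower on this scale too. The difference of miR-29a-5p was −0.34 (standard error 0.13, adjusted p = 0.0285 from limma). For miR-29c-5p, the lowest, median and highest log2 signals were 7.63, 7.78 and 8.24 in WT mice and 6.44, 7.46 and 7.68 in Dgcr8+/- mice, a difference of −0.57 (standard error 0.16, adjusted p = 0.00402 from limma). These sizes stand beside a median of −0.39 over all 495 tested miRNAs, of which 59.2% were called lower. Without Dgcr8+/- replicate 2 the differences of the 5 members were smaller, from −0.46 to −0.25, and each remained past the threshold.

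**Figure D2:**
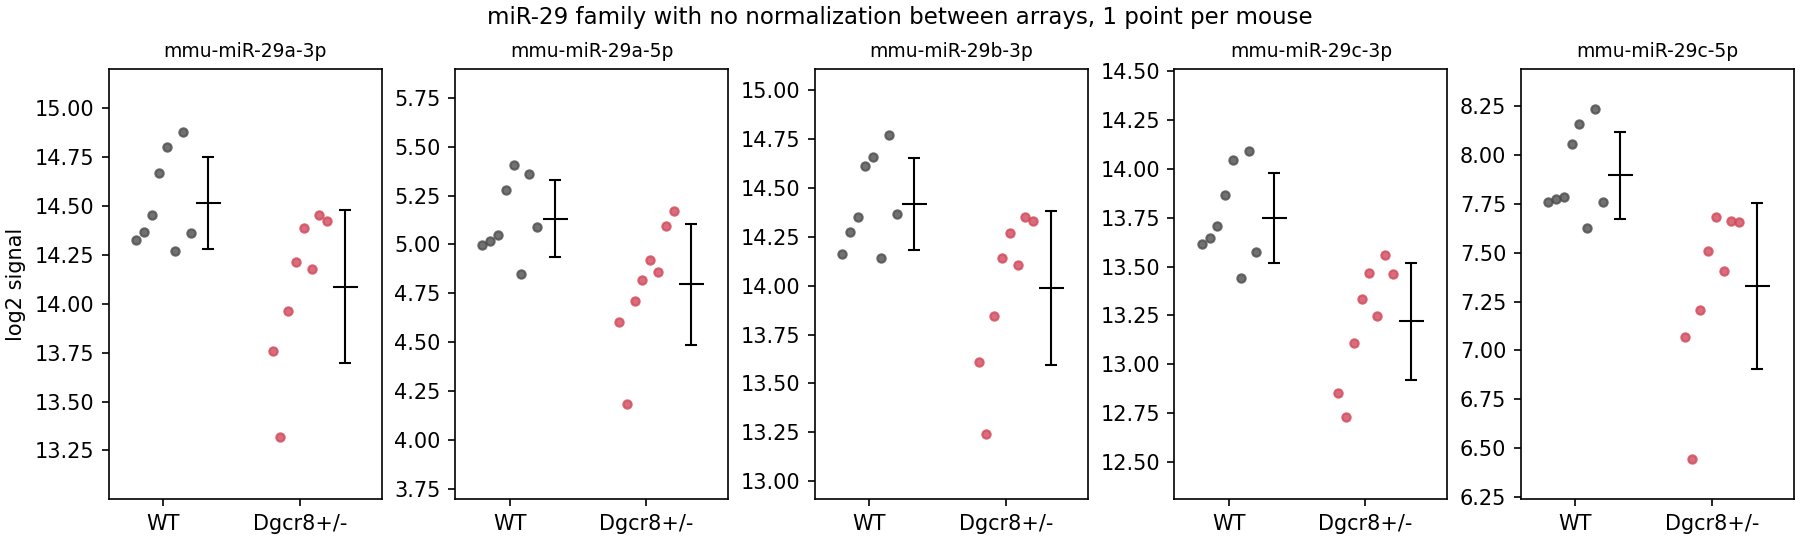
Log2 signal with no normalization between arrays (y axis, each panel spans 2.2 log2 units) of the 5 members, with 1 point per mouse in order of replicate number and the mean with its SD (n = 8). In every panel the Dgcr8+/- mean lies below the WT mean, by 0.34 to 0.57, and Dgcr8+/- replicate 2 is the lowest point.

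The direction for the family thus depended on what the arrays were set equal to. When each array was centred on the median of the tested miRNAs with no quantile step, an alternative chosen after the data were seen, miR-29c-3p was lower, at −0.19 (standard error 0.063, adjusted p = 0.0140 from limma) and so was miR-29c-5p, at −0.23 (standard error 0.085, adjusted p = 0.0263 from limma). Both remained past the threshold when Dgcr8+/- replicate 2 was left out and when the slide was added to the model. The differences of miR-29a-3p, −0.095, miR-29b-3p, −0.095, and miR-29a-5p, −0.0016, were not past it. On this scale 37.2% of the tested miRNAs were called lower and the median difference was −0.056.

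When the arrays were scaled to the 75th percentile of probes detected on all arrays, miR-29a-5p was higher by 0.20 (standard error 0.049, adjusted p = 0.00226 from limma) and the other 4 members were not past the threshold. Of the tested miRNAs, 42.4% were called higher there, and their median difference was 0.14. When they were scaled to the labelling spike-ins, RNAs added in known amount before labelling, all 5 were lower, at −0.56 to −0.33, with 53.3% of the tested miRNAs called lower and a median of −0.38. The differences between the members are fixed under any scaling of whole arrays, so their order carries no added weight from 1 such scaling to the next.

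**Figure D3:**
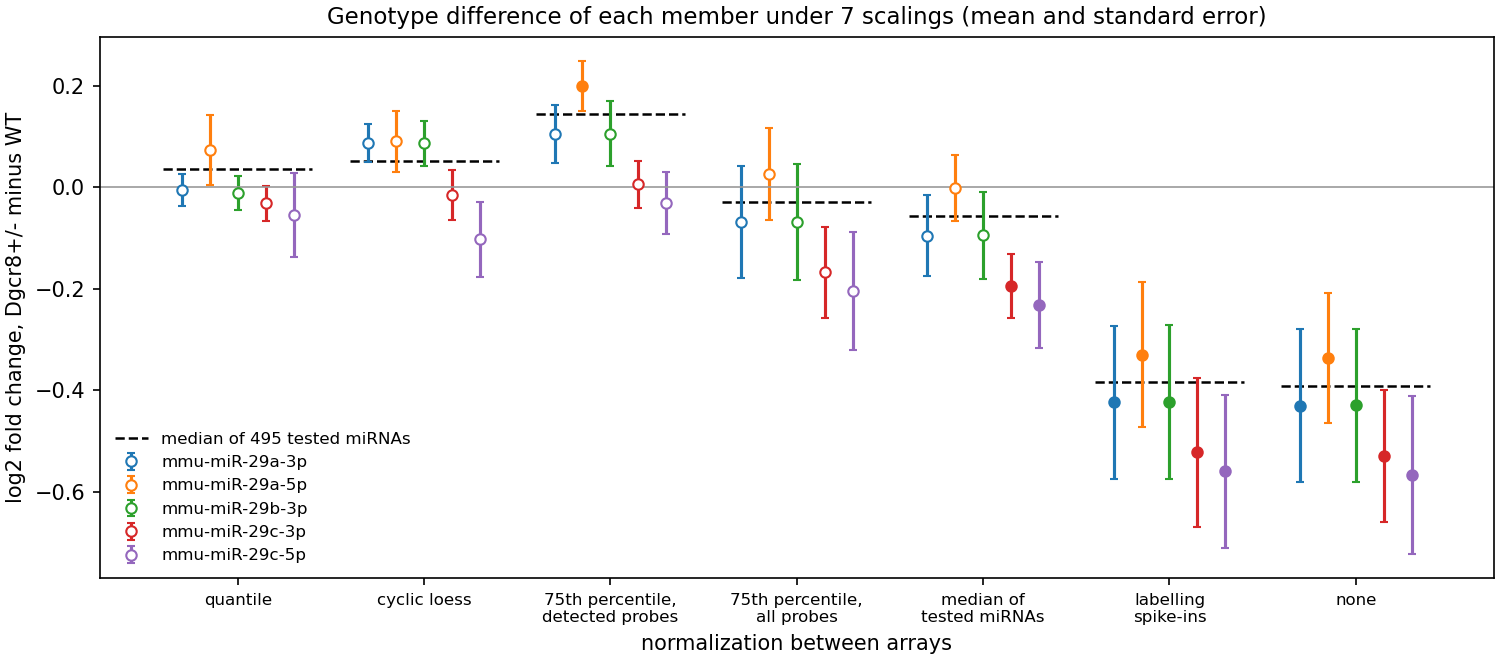
Log2 fold change of each member, Dgcr8+/- minus WT, with its standard error (y axis) under 7 ways of scaling the arrays (x axis), where a filled point is past an adjusted p of 0.05 and the dashed line is the median of the 495 tested miRNAs. The members move up and down with the dashed line, from a median of 0.14 to −0.39.

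Members of the same array share its brightness, so their log2 difference within an array was compared between the genotypes for 6 pairs of members and arms, which tests for unequal change only. Of these pairs, 0 were past the threshold after Benjamini-Hochberg adjustment over the 6, and 1 was at an unadjusted p below 0.05. The log2 difference miR-29a-5p minus miR-29c-5p, the passenger strands of a chromosome 6 and a chromosome 1 hairpin, was −2.78 at its lowest, −2.71 at the median and −2.62 at its highest in WT mice, and −2.78, −2.58 and −2.37 in Dgcr8+/- mice. Dgcr8+/- mice reached above every WT mouse but also down to the lowest. The means differed by 0.13 (95% interval 0.017 to 0.24, 2-sided exact permutation test, p = 0.0255, adjusted p = 0.153).

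This pair of passenger strands passed the threshold when the quantile step was left out. With signals that were not normalized, the log2 difference was −2.87 at its lowest, −2.76 at the median and −2.67 at its highest in WT mice, and −2.76, −2.52 and −2.26 in Dgcr8+/- mice, and 6 of the 8 Dgcr8+/- mice lay above every WT mouse. The means differed by 0.23 (2-sided exact permutation test, p = 0.00186, adjusted p = 0.0112 over the 6 pairs). It was 0.24 within slide 1, 0.27 within slide 2 and 0.19 without Dgcr8+/- replicate 2. Any scaling of whole arrays gives this same value, since it cancels within an array. With the quantile step kept, the main difference was 0.13 and not past the threshold, as given above. Also with that step kept, it was smaller with the median of the probes (0.030, exact permutation test, adjusted p = 0.971), from the deposited table of total signals (0.045, adjusted p = 0.890) and with a normexp background correction (0.070, adjusted p = 0.362). Without the quantile step these rules were not tried. The spots behind miR-29a-5p were dim, with 40% to 46.7% of them well above background on an array, against 100% for miR-29c-5p.

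The same contrast in the guide strands, miR-29a-3p minus miR-29c-3p, was 0.71 at its lowest, 0.81 at the median and 0.82 at its highest in WT mice and 0.73, 0.83 and 0.87 in Dgcr8+/- mice. The means differed by 0.026 (95% interval −0.017 to 0.069, 2-sided exact permutation test, adjusted p = 0.472). Without Dgcr8+/- replicate 2 the means differed by 0.040, past the threshold (exact permutation test, adjusted p = 0.00280). In the signals that were not normalized, the difference was 0.099 (exact permutation test, p = 0.0381, adjusted p = 0.109), and 7 of the 8 Dgcr8+/- mice lay above every WT mouse while replicate 2 lay below them all. There it was −0.016 within slide 1, which held that mouse, and 0.15 within slide 2.

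The arms of a hairpin were compared in the same way. MiR-29a-3p minus miR-29a-5p, guide against passenger, differed between the genotypes by −0.079 (95% interval −0.21 to 0.055, exact permutation test, adjusted p = 0.472). Without Dgcr8+/- replicate 2 it was −0.12 (exact permutation test, adjusted p = 0.0429). By slide it was 0.13 on slide 1, which held that mouse, and −0.22 on slide 2. MiR-29c-3p minus miR-29c-5p differed by 0.023 (95% interval −0.18 to 0.23, exact permutation test, adjusted p = 0.958), with replicate 2 at 6.53 and every other mouse of either genotype between 5.73 and 5.95. Without replicate 2 it was −0.068 (exact permutation test, adjusted p = 0.103). By slide it was 0.27 on slide 1, which held that mouse, and −0.093 on slide 2.

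The remaining pairs set miR-29b-3p against the other guide strands. MiR-29a-3p minus miR-29b-3p differed by 0.0057 (95% interval −0.021 to 0.033, exact permutation test, adjusted p = 0.813), and miR-29b-3p minus miR-29c-3p by 0.021 (95% interval −0.032 to 0.074, exact permutation test, adjusted p = 0.630). Neither difference was larger than the spread between mice.

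**Figure D4:**
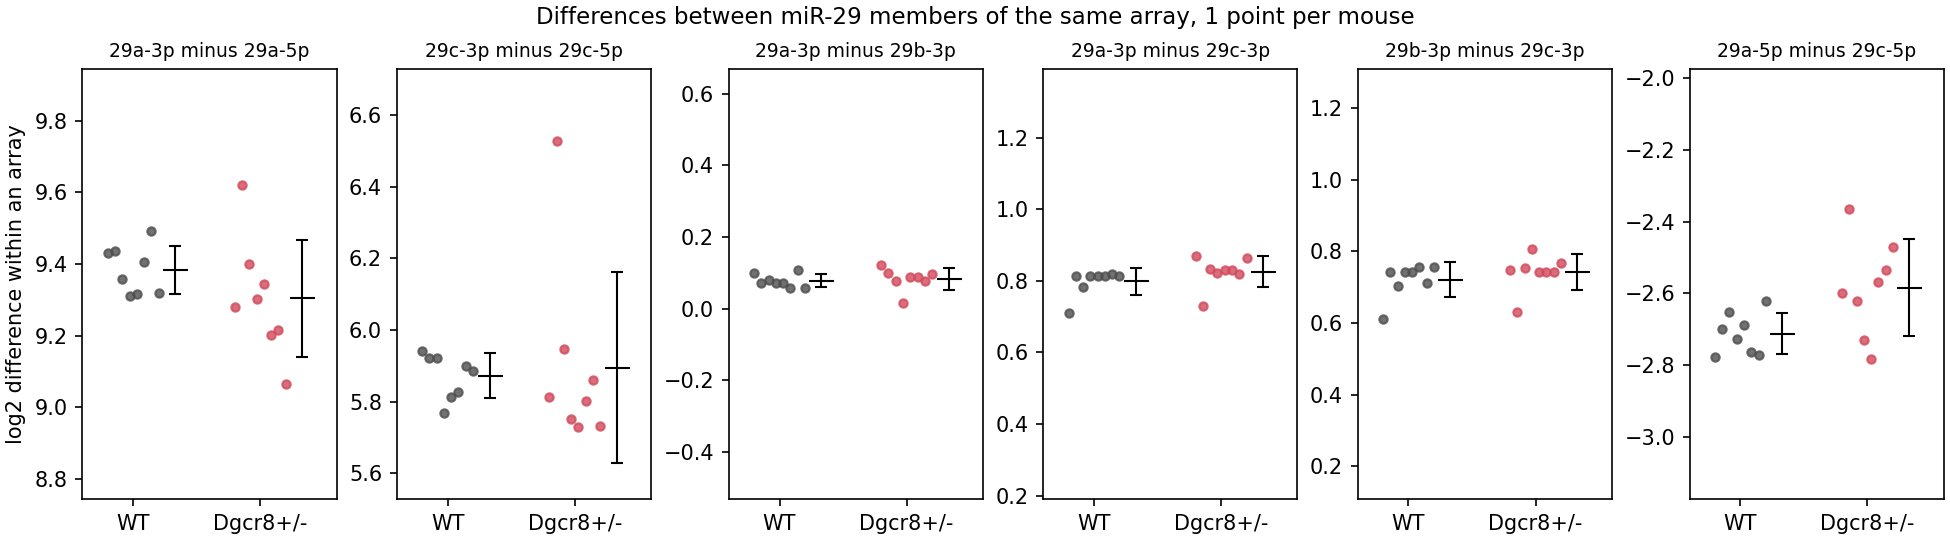
Log2 difference of a pair of members on the same array after quantile normalization (y axis, each panel spans 1.2 log2 units) for the 6 pairs, with 1 point per mouse in order of replicate number and the mean with its SD (n = 8). The groups overlap in every panel. The Dgcr8+/- mean of 29a-5p minus 29c-5p lies 0.13 above the WT mean, and replicate 2 stands alone at 6.53 in 29c-3p minus 29c-5p.

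Probes of the same member moved by little and not always the same way, and these values carry no test. The probes of miR-29a-3p differed between genotypes by 0.025 and −0.021, those of miR-29b-3p by −0.0064 and −0.013, and those of miR-29c-3p by −0.074 and 0.0063. The probes of miR-29c-5p differed by −0.022 and −0.078. MiR-29a-5p had 4 probes, of which the brighter ones differed by 0.071 and 0.11 and the dimmer ones by −0.21 and −0.018, the last of these at the floor of 1 signal unit on 6 of the 16 arrays. The value of miR-29a-5p therefore came mostly from its brighter probes.

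Across the mice of a genotype, the guide strands were correlated in 6 relations, 3 pairs in each genotype. MiR-29a-3p and miR-29b-3p, which share a cluster through Mir29b-1, had a Pearson's r of 0.88 in WT mice (exact permutation p = 0.107, adjusted p = 0.161, Spearman's rho 0.41 with exact permutation p = 0.286) and 0.75 in Dgcr8+/- mice (exact permutation p = 0.0219, adjusted p = 0.131, rho 0.72 with exact permutation p = 0.0513). In WT mice the relation could not be recomputed without the 2 mice farthest from the median, replicates 1 and 7. The other 6 had the same value of miR-29a-3p. Replicate 1 was the lowest of its group for both members, at 14.27 and 14.17. Replicate 7 was the highest for miR-29a-3p, at 14.38, but at the group's median of 14.27 for miR-29b-3p. The r of 0.88 thus rests mainly on replicate 1. In Dgcr8+/- mice r was 0.94 without the 2 farthest mice (exact permutation p = 0.00833, adjusted p = 0.0333). That adjustment covered fewer than the 6 relations, as those of miR-29a-3p in WT mice could not be recomputed.

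The relations of miR-29c-3p, which took 2 different values in the WT mice, depended on the quantile step and on single mice. Its r with miR-29a-3p was −0.21 in WT mice (exact permutation p = 0.643, adjusted p = 0.643) and 0.69 in Dgcr8+/- mice (exact permutation p = 0.0568, adjusted p = 0.143), and the latter was −0.10 without the 2 farthest mice and 0.93 without Dgcr8+/- replicate 2 (exact permutation test, adjusted p = 0.0143). With no normalization the WT value was 0.98 (exact permutation test, adjusted p = 0.000112). There, members of the same array share its brightness, so this r does not describe their own relation alone. The r of miR-29c-3p with miR-29b-3p was −0.58 in WT mice (exact permutation p = 0.0714, adjusted p = 0.143) and 0.58 in Dgcr8+/- mice (exact permutation p = 0.146, adjusted p = 0.176), and the latter was 0.90 without replicate 2. None of the 6 relations was past the threshold after adjustment, 1 had an unadjusted p below 0.05, and the repeated values of the 3p arms limit each of them.

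The miRNAs outside the family whose levels followed the mean of the 3p arms most closely over the 16 mice, after subtraction of each genotype's mean, were named from 489 compared. They were miR-665-3p with r = 0.78, miR-101a-5p with r = 0.77, miR-153-5p with r = 0.74, miR-127-5p with r = 0.74 and miR-136-3p with r = 0.72. The r of miR-29a-5p with that mean was 0.24 and that of miR-29c-5p was 0.063. Replicate 1 of each genotype lay farthest from the median of the 3p mean, and without both mice r was between 0.10 and 0.43 for the 5 miRNAs. These correlations describe arrays that share a normalization and carry no test. MiR-665-3p was also dim, with a mean log2 signal of 2.20 in WT and 0.92 in Dgcr8+/- mice. So was miR-101a-5p, at 2.02 and 2.03.

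Lists of miRNAs known from the cell types of the LV wall and nearby tissue were set beside the family. The counts called in all of these lists stand beside 27.9% called lower and 28.3% called higher over the 495 tested miRNAs. At an unadjusted p below 0.05 from limma, the share over all tested miRNAs was 64.8%. In multiciliated cells, miR-34b, miR-34c and miR-449 promote the assembly of cilia. Of 7 such miRNAs, 5 were tested and 0 were called by limma (1 at an unadjusted p below 0.05), with a median log2 fold change of 0.29, from 0.15 for miR-449a-5p to 0.35 for miR-34c-5p, and miR-449b and miR-449c-5p were detected on no array. Among 9 miRNAs of neurons, where miR-29 accumulates with age, 3 were called lower and 1 higher. Their median was 0.067, and the range ran from −0.34 for miR-153-3p (adjusted p = 0.000155 from limma) to 0.23 for miR-212-3p (adjusted p = 0.0528). Both arms of miR-9, expressed in neural stem cells and their progeny, were not called, at −0.011 for miR-9-3p and 0.029 for miR-9-5p.

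Among 6 miRNAs associated with astrocytes, 0 were called lower and 1 higher. Their median was 0.037, from −0.12 for miR-21a-5p to 0.22 for miR-143-3p, which also marks smooth muscle. In the choroid plexus list, miR-204-5p was lower, at −0.29 (adjusted p = 0.0136 from limma), miR-211-5p was at 0.0021, and miR-204-3p was detected on no array. In the oligodendrocyte list of 4, 1 was called higher, from −0.14 for miR-338-5p to 0.29 for miR-219a-2-3p (adjusted p = 0.00887 from limma).

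Among 4 miRNAs of blood vessels, 2 were called higher, from 0.0036 for miR-126a-3p to the value given for miR-143-3p. Among 3 of red blood cells, 1 was called lower, and they ran from −0.66 for miR-486a-5p (adjusted p = 0.000599 from limma) to −0.12 for miR-451a. Among 4 tested of 5 from microglia and immune cells, 1 was called lower, from −0.23 for miR-142a-5p to 0.0074 for miR-146a-5p. The summed signal of the neuron list ran from 41100 to 45844 in WT mice and from 42355 to 46804 in Dgcr8+/- mice, and that of the astrocyte list from 29687 to 30699 and from 29896 to 32046. Both pairs of ranges overlapped. The part of any cell type in the values of the miR-29 family was not tested.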

How the data were processed

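MiRNAs were measured in LV wall RNA from 8 WT littermates and 8 Dgcr8+/- mice, 1 mouse per array. The deposited scanner files hold spot intensities, background-corrected by the authors with Agilent Feature Extraction (10.5.1.1 in the submitters' processing notes, 10.7.3.1 in the file headers) and not normalized between arrays. The study's methods describe quantile normalization and a 2-group test. Here spots marked as outliers were dropped and the rest averaged per probe. The 4415 probes were quantile-normalized and averaged per miRNA, and log2 was taken with a floor of 1 signal unit. MiRNAs detected on at least 8 of 16 arrays (495, with 430 on all) were tested with limma 3.58.1 in R 4.3.3 and adjusted by Benjamini-Hochberg at 0.05. Single values and differences within an array were tested by 2-sided exact permutation. The fit was checked on simulated data. Alternatives covered scaling, background, spot, probe and detection rules, array weights, slide, replicate number, the methods' t-test and each mouse left out. The number of arrays limits the precision.

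Named were the 5 members, the other arms of their hairpins, miRNAs sharing a seed, the 5 most alike miRNAs and the extremes of each marker list. Members and lists were chosen with earlier results of these data known. Sequences are from RefSeq, build GRCm38.p6. The scanner headers name mm9, and the coordinates printed are those of the RefSeq table only.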

Additional observations from a re-analysis of the deposited data

Results flagged for a closer look

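Within groups of 8 mice, 30 sets of values were searched for a mouse whose gap to its nearest neighbour was a large part of the group's range, and 11 were found, of which chance gives about 1 in 20 groups, or 1.5. Dgcr8+/- replicate 2 accounted for 5 of them. It had a log2 signal of 7.07 for miR-29c-5p, log2 differences within the array of 6.53 for miR-29c-3p minus miR-29c-5p, 0.73 for miR-29a-3p minus miR-29c-3p and 0.63 for miR-29b-3p minus miR-29c-3p, and a log2 hybridisation spike-in of 13.71, against 14.91 to 15.12 on the other Dgcr8+/- arrays. WT replicate 1 accounted for 4, with log2 signals of 14.27 for miR-29a-3p and 14.17 for miR-29b-3p and log2 differences of 0.71 for miR-29a-3p minus miR-29c-3p and 0.61 for miR-29b-3p minus miR-29c-3p. Dgcr8+/- replicate 4 had a log2 difference of 0.016 for miR-29a-3p minus miR-29b-3p, below 0.078 to 0.12 in the other mice of its group. WT replicate 6 had a log2 hybridisation spike-in of 16.05, against 14.93 to 15.26. The sets overlap, since the log2 differences are made from the same member values, so a single odd array can be counted several times. The count of 11 is thus not directly comparable with 1.5. The values of the 3p arms repeat, which makes such gaps more likely in them, and the part of the spike-in signal in the values of miR-29c was not tested.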

How the results depend on the processing

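The members' differences depended most on how the arrays were scaled. Values are log2 differences, Dgcr8+/- minus WT. With no normalization between arrays, they were −0.430 for miR-29a-3p, −0.336 for miR-29a-5p, −0.429 for miR-29b-3p, −0.529 for miR-29c-3p and −0.566 for miR-29c-5p, with the labelling spike-ins −0.423, −0.329, −0.422, −0.522 and −0.559, and all were past the threshold. There, 293 and 264 miRNAs were called lower by limma and 0 and 0 higher, with 0 and 0 higher at an unadjusted p below 0.05. With the 75th percentile of probes detected on all arrays, miR-29a-3p was at 0.105, miR-29a-5p at 0.199 (past the threshold), miR-29b-3p at 0.106 and miR-29c-3p at 0.0062. With cyclic loess, miR-29a-3p was at 0.0872 and miR-29b-3p at 0.0874. Centred on the median of the tested miRNAs, chosen after seeing the data, miR-29a-5p was at −0.00155, and miR-29c-3p at −0.194 and miR-29c-5p at −0.231 passed the threshold, with 93 miRNAs called higher. With array weights, miR-29a-5p was at 0.133, past the threshold, miR-29b-3p at 0.0048 and miR-29c-5p at 0.041. MiR-29a-3p was at 0.022 with marked spots kept and 0.0020 with the median of probes, and miR-29a-5p at −0.020 with the latter and −0.038 from the deposited value table. Within slide 1, miR-29a-3p was at 0.011, miR-29a-5p at −0.114 and miR-29c-3p at 0.023, and within slide 2, miR-29c-5p was at 0.040.

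With mice left out 1 at a time, the difference ran from −0.0149 to 0.0039 for miR-29a-3p, from 0.037 to 0.121 for miR-29a-5p, from −0.0239 to 0.0036 for miR-29b-3p, from −0.044 to −0.0161 for miR-29c-3p and from −0.081 to 0.024 for miR-29c-5p, with 0 calls. MiR-29a-3p turned positive without WT replicate 7 or Dgcr8+/- replicate 1 or 4, miR-29b-3p without Dgcr8+/- replicate 1 and miR-29c-5p without Dgcr8+/- replicate 2. Between 133 and 150 miRNAs were then called lower and between 126 and 170 higher.

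For pairs within an array, every scaling of whole arrays gave 0.230 for miR-29a-5p minus miR-29c-5p, past the threshold, and −0.00074 for miR-29a-3p minus miR-29b-3p, and cyclic loess gave 0.192, also past it, and −0.000156. The first of these pairs was 0.030 with the median of probes, 0.045 from the deposited table and 0.070 with normexp, not past the threshold. These rules kept the quantile step, where the main value was 0.128, also not past it. MiR-29a-3p minus miR-29b-3p was −0.000862 with normexp and −0.041 from the deposited table, where miR-29a-3p minus miR-29c-3p was −0.029. MiR-29a-3p minus miR-29a-5p was 0.022 with the median of probes. With the slide as a block, miR-29b-3p minus miR-29c-3p was −2.18e-05. Within slide 1, miR-29a-3p minus miR-29a-5p was 0.125, miR-29a-3p minus miR-29c-3p −0.012 and miR-29b-3p minus miR-29c-3p −0.032, and within slide 2, miR-29c-3p minus miR-29c-5p was −0.093 and miR-29a-3p minus miR-29b-3p −0.0099. With mice left out 1 at a time, the pairs in the order they are plotted ran from −0.125 to −0.045, from −0.068 to 0.046, from 0.000227 to 0.0153, from 0.014 to 0.040, from 0.0049 to 0.037 and from 0.097 to 0.157. Without Dgcr8+/- replicate 2, the first and the fourth passed the threshold, and without Dgcr8+/- replicate 5 the last did (0.157, exact permutation test, adjusted p = 0.0252).

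The correlations of the 3p arms followed the scaling most. With no normalization, the shared brightness of an array enters every r. For WT mice, r was 0.974 for miR-29a-3p with miR-29b-3p, 0.984 for miR-29a-3p with miR-29c-3p and 0.944 for miR-29b-3p with miR-29c-3p with no normalization, 0.860, 0.882 and 0.678 with the 75th percentile and 0.917, 0.937 and 0.817 centred on the median, all past the threshold apart from 0.678. By Spearman's rho, none of these WT pairs was past it with the 75th percentile (exact permutation test, adjusted p = 0.115, 0.0838 and 0.205). For Dgcr8+/- mice, the same pairs had an r of 0.998, 0.978 and 0.984 with no normalization and 0.991, 0.815 and 0.866 centred, all past the threshold. With the 75th percentile they had 0.983, 0.494 and 0.600, of which only the first was past it. The first pair had 0.943 without the 2 farthest mice. Without these, the second pair was at −0.102. Without Dgcr8+/- replicate 2, the pairs with miR-29c-3p were at 0.930 and 0.897, past the threshold. By Spearman's rho the latter was not past it (exact permutation test, adjusted p = 0.164).

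Replicate numbers were not taken to pair the mice, since 5 of 8 same-numbered pairs had a correlation above 0.1 (range −0.14 to 0.50) and not all 8. For 3 of 8 numbers the same-numbered mouse correlated better than every other mouse of the opposite genotype, a hint from the data and not the design. With the replicate number as a block, 140 miRNAs were called lower and 147 higher, the members had the same differences, and 0 members were past the threshold. Signal over background limits miR-29a-5p, and rank spacing limits the 3p arms. Causes of these shifts between scalings were not tested.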
